A study of Mus musculus with 21 samples.

Results

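The glucocorticoid response and stress hormone genes examined here are 10 of the 16318 genes of the deposited table: Nr3c1, Nr3c2, Fkbp5, Sgk1, Tsc22d3, Zbtb16, Pdk4, Cdkn1a, Crh and Crhr1. They were listed by symbol, with no threshold on measured values but with earlier results of these data known, and each of the 10 passed the low-count filter. The RNA came from whole brains of 21 SAMP8 mice, a senescence-accelerated line that declines in memory without a transgene, which were 6 months old when the brain was taken. From 4 months of age, for 8 weeks and on alternate days, 9 mice (3 female, 6 male) received subcutaneous HsTX1[R14A], a peptide that blocks the potassium channel Kv1.3, at 1 mg/kg, and 12 mice (6 female, 6 male) received phosphate-buffered saline (PBS). All 21 mice had been through behavioral tests during dosing and were perfused under anesthesia at the end, and each library came from 1 mouse. Treatments were randomized within cages, and the cage of a mouse is not given in the labels used here. There was no SAMR1 control strain or unhandled group in the libraries analysed here, so both groups share the SAMP8 background, the injections and the testing.

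Glucocorticoids such as corticosterone, the main adrenal steroid of mice, enter cells and bind a pair of related nuclear receptors, the mineralocorticoid receptor (Nr3c2), which binds corticosterone tightly, and the glucocorticoid receptor (Nr3c1), which binds it more loosely and fills during stress and at the daily hormone peak. The bound receptors move to the nucleus and bind DNA at glucocorticoid response elements, and genes such as Fkbp5, Sgk1, Tsc22d3, Zbtb16, Pdk4 and Cdkn1a are known to be induced in this way in many tissues. Upstream of the hormone, corticotropin-releasing hormone (Crh) from the hypothalamus starts the pituitary and adrenal response, and Crh released within the forebrain acts on its receptor Crhr1.

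Library totals ran from 14917174 to 47613792 estimated counts per mouse, and levels are given as CPM, counts relative to the library total, scaled by TMM. The level of long relative to short transcripts differed between libraries, and the cause was not tested. The length slope, the slope of centered log2 CPM on log2 transcript length within a library, had a lowest, median and highest value of -0.38, -0.023 and 0.15 in PBS mice and of -0.14, 0.15 and 0.23 in HsTX1[R14A] mice. The 2 PBS libraries with the lowest slopes, mouse 103 (-0.38) and mouse 90 (-0.34), stood apart from the others, and treatment differences are given with and without them. Xist was at least 261 CPM in females and at most 3.39 CPM in males, and no library went against its sex label. The columns of the deposited table were named in 2 forms, whose meaning is not given in the sources used here, and the more common form covered 15 mice (10 of PBS, 5 of HsTX1[R14A]) while 6 mice (2 of PBS, 4 of HsTX1[R14A]) had the less common one. Snap25, a neuron marker, had at least 1709 CPM in each library, while the least abundant endothelial marker fell to 1.21 CPM. The summed level of 6 hypothalamus marker genes ran from 2.14 to 259 CPM between PBS mice and from 4.07 to 115 CPM between HsTX1[R14A] mice, so this sum differed widely between libraries of 1 group. Whether the share of hypothalamic RNA or the level of these genes per cell differed was not tested. Kcna3, the gene of Kv1.3, averaged 4.10 ± 0.813 CPM under PBS (SD, n = 12) against 5.71 ± 1.51 CPM under the peptide (SD, n = 9).

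Nr3c1 fell and Crhr1 rose in HsTX1[R14A]-treated brains, and the other 8 genes did not pass the test. The test was edgeR's quasi-likelihood test with sex in the model, with Benjamini-Hochberg adjustment over all 16303 genes tested and a threshold of 0.05. In this comparison 31.6% of all genes tested passed, 15.5% of all as higher and 16.1% of all as lower in HsTX1[R14A] mice, so 2 of 10 genes, 1 in each direction, is a smaller share than that of all genes. The median log2 fold change was 0.037 over the 10 genes and -0.013 over all genes tested. Neither Nr3c1 nor Crhr1 passed with the library name form as a covariate, where 1999 genes passed, with 1 surrogate variable (2110 genes) or with sample quality weights (5662 genes). Neither passed without PBS mice 103 and 90, a comparison chosen after the values had been seen, where 2887 of 16302 genes passed. With the length slope of each library in the model neither passed, and 0 of 16303 genes did, while 1865 had an unadjusted p under 0.05. In the fits within 1 name form, given below for single genes, no gene passed (0 of 16305 in 15 mice and 0 of 16170 in 6 mice).

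Without those 2 mice the log2 fold changes of genes that did not pass were 0.13 for Fkbp5, -0.056 for Sgk1, -0.076 for Nr3c2, -0.048 for Pdk4, 0.069 for Cdkn1a and 0.16 for Crh, and those of the other 4 genes stand with each gene.

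**Figure D1:**
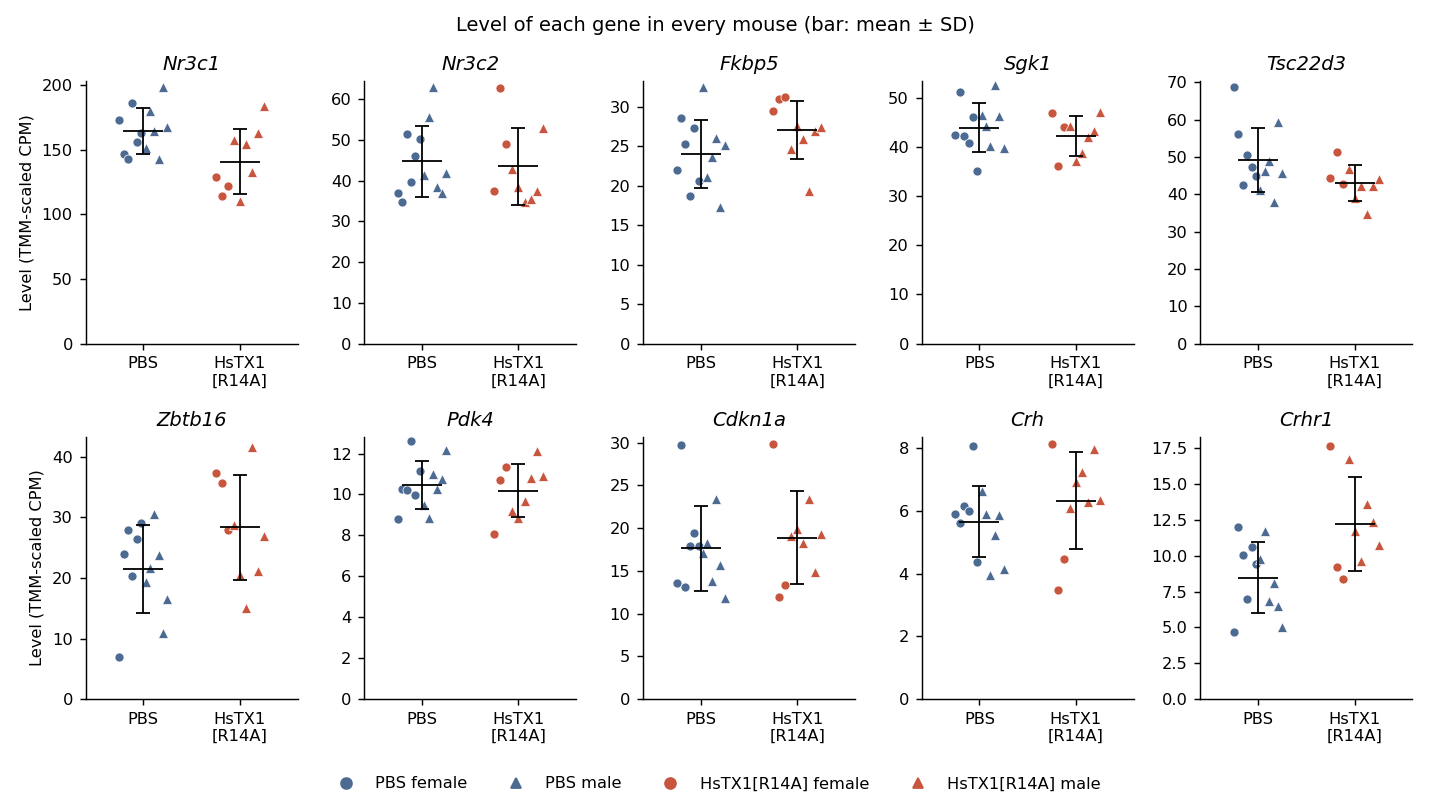
Level of each of the 10 genes in every mouse, in TMM-scaled CPM from 0 upward, for PBS (blue) and HsTX1[R14A] (red), with circles for females, triangles for males, and black lines for the mean ± SD (n = 12 and n = 9). In Nr3c1, 5 of 9 HsTX1[R14A] mice lie below every PBS mouse, in Crhr1, 4 of 9 lie above every PBS mouse, and in each of the 10 genes the groups overlap.

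Per kilobase of the longest transcript, the scale used here to compare genes, Nr3c1 had the highest level of the 10 genes in PBS mice, with 25.6 ± 2.76 CPM per kilobase (SD, n = 12). The transcript expressed may be a shorter one, and the length slope differed between these libraries, so the order is approximate. Its level lay above that of Tsc22d3, the next gene in the order, in 12 of 12 mice, although the ranges over mice overlapped. The order then ran from Tsc22d3 (17.1 ± 2.98) over Sgk1 (14.2 ± 1.59) to Cdkn1a (8.49 ± 2.40), Nr3c2 (7.56 ± 1.47) and Fkbp5 (6.23 ± 1.13 CPM per kilobase, SD, n = 12 each). Crh (4.28 ± 0.862), Zbtb16 (4.20 ± 1.41), Crhr1 (3.44 ± 1.01) and Pdk4 (3.01 ± 0.336 CPM per kilobase, SD, n = 12 each) formed the lower end. Sgk1 was above Cdkn1a in 12 of 12 PBS mice and Fkbp5 above Crh in 12 of 12. Neighbors that changed places between mice were Tsc22d3 and Sgk1, with Tsc22d3 above in 10 of 12, Nr3c2 and Fkbp5 (9 of 12), Cdkn1a and Nr3c2, with Cdkn1a above in 8 of 12, Crh and Zbtb16, with Crh above in 6 of 12, Zbtb16 and Crhr1 (7 of 12), and Crhr1 and Pdk4 (7 of 12). Of all genes tested, 85.6% had a level per kilobase at or below that of Nr3c1, 55.6% at or below that of Fkbp5 and 38.5% at or below that of Pdk4, in PBS mice.

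Among the receptors, Nr3c1 (ENSMUSG00000024431, GRCm38 chr18:39410545-39519421, minus strand), the glucocorticoid receptor, was lower after HsTX1[R14A]. Its lowest, median and highest levels were 143, 164 and 199 CPM in PBS mice and 110, 133 and 184 CPM in HsTX1[R14A] mice. The groups overlapped, but 8 of 9 HsTX1[R14A] mice lay below the PBS median and 5 below the lowest PBS mouse. The mean was 165 ± 17.8 CPM (SD, n = 12) against 141 ± 24.99 CPM (SD, n = 9), a log2 fold change of -0.25 with a standard error of 0.087 and a 95% interval from -0.44 to -0.073 (edgeR, adjusted p = 0.0341). The 3 treated females had 114, 122 and 129 CPM, all below the 6 PBS females, which ran from 143 to 186 CPM. The 6 treated males had 110, 133, 155, 158, 163 and 184 CPM, and the PBS males ran from 143 to 199 CPM, so their ranges overlapped. Within the 15 mice whose libraries carry the more common form of name the log2 fold change was -0.36 (edgeR, adjusted p = 0.0635), and within the 6 mice of the other form it was -0.062 (edgeR, adjusted p = 0.939). With the name form as a covariate it was -0.27 (edgeR, adjusted p = 0.0540). It was -0.21 without PBS mice 103 and 90 (edgeR, adjusted p = 0.0934) and -0.087 with the length slope in the model (edgeR, adjusted p = 0.704), over a range of adjusted p from 0.0182 to 0.939 across 35 alternatives. Nr3c1 did pass when a trend with transcript length and GC was removed from each library, where 2611 of 16303 genes passed. With 1 mouse left out, Nr3c1 failed the threshold without PBS mouse 73, 101 or 90 and without HsTX1[R14A] mouse 98, 71, 72, 88 or 81, with log2 fold changes from -0.30 to -0.22 over all 21 omissions and an adjusted p (edgeR) of at most 0.0784.

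Nr3c2 (ENSMUSG00000031618, GRCm38 chr8:76899442-77245012, plus strand), the mineralocorticoid receptor, which in the brain is known for its high level in the hippocampus, differed little. From lowest over median to highest, levels were 34.7, 41.7 and 63.0 CPM in PBS mice and 34.8, 38.4 and 62.7 CPM in HsTX1[R14A] mice. All 9 treated mice lay inside the PBS range, and the log2 fold change was -0.033 with a 95% interval from -0.29 to 0.22 (edgeR, adjusted p = 0.846). Gm10649, a gene of the opposite strand, overlaps Nr3c2 and is also in the table. The sources used here name different library kits, so counting by strand is not settled for this pair. Per kilobase, Nr3c1 exceeded Nr3c2 by a ratio of 3.50 ± 0.761 under PBS (SD, n = 12) and of 3.10 ± 0.780 under HsTX1[R14A] (SD, n = 9), with ranges of 2.40 to 4.95 and of 1.68 to 4.09 that overlap.

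**Figure D2:**
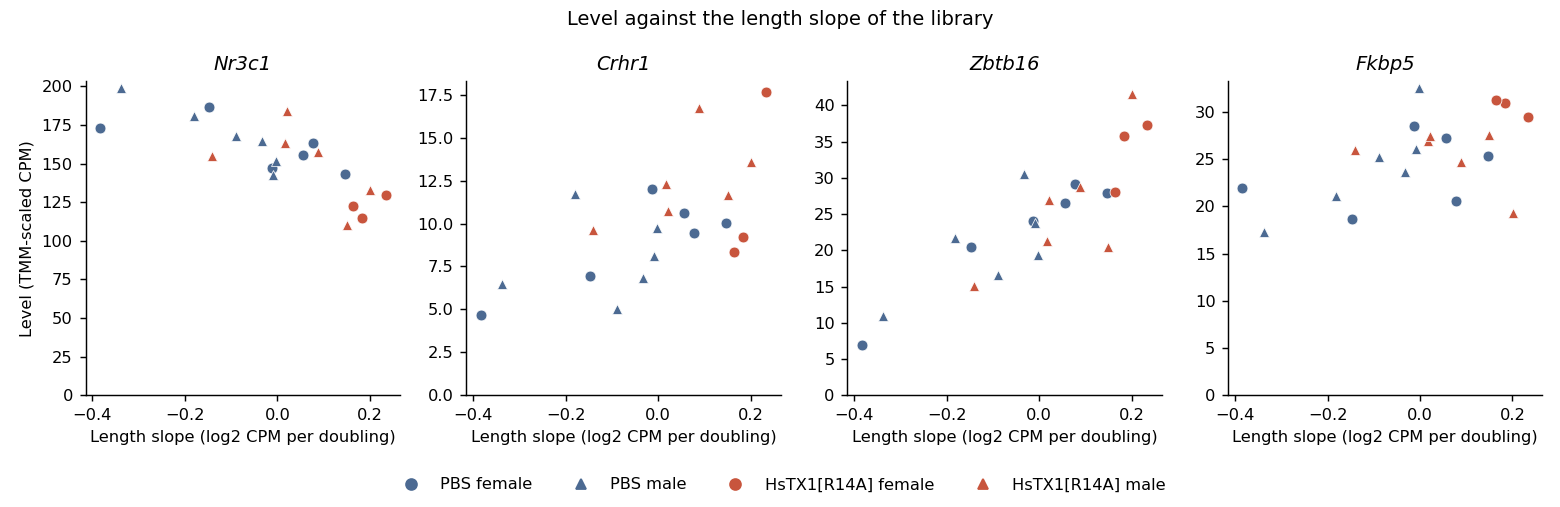
Level of Nr3c1, Crhr1, Zbtb16 and Fkbp5 in TMM-scaled CPM against the length slope of the library, for the 21 mice, with PBS in blue, HsTX1[R14A] in red, circles for females and triangles for males. Nr3c1 runs downward and Zbtb16 upward with the slope in both groups, and PBS mice 103 and 90 are the leftmost points.

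The levels of several of these genes moved with the length slope among the 12 PBS mice, in which treatment plays no part. The slope is computed from all genes of the same libraries, and the share of all genes that move with it was not determined. The relations below are therefore not shown to be particular to these genes. Over 10 relations, 1 per gene, Pearson's r with the slope was 0.88 for Zbtb16 (permutation, 100000 resamples, two-sided, p = 0.00037, adjusted p = 0.0037), -0.78 for Nr3c1 (permutation p = 0.00303, adjusted p = 0.0151) and -0.75 for Tsc22d3 (permutation p = 0.00514, adjusted p = 0.0171). Spearman's rho was 0.71 for Zbtb16 (permutation p = 0.0114, adjusted p = 0.0467), -0.79 for Nr3c1 (permutation p = 0.00379, adjusted p = 0.0379) and -0.70 for Tsc22d3 (permutation p = 0.0140, adjusted p = 0.0467). Without the 2 mice farthest from the median slope, r was 0.60 for Zbtb16, -0.76 for Nr3c1 and -0.30 for Tsc22d3, so the last relation rests on those 2 mice. Among the 10 PBS mice of the more common name form, r was 0.89, -0.76 and -0.76 in that order, and the other form held 2 PBS mice, too few for a value. In the 9 HsTX1[R14A] mice, r was 0.84 for Zbtb16 (exact permutation test, unadjusted p = 0.00473), -0.68 for Nr3c1 (exact permutation test, unadjusted p = 0.0429) and -0.037 for Tsc22d3 (exact permutation test, unadjusted p = 0.922). The other 7 genes did not pass in PBS mice, with Crhr1 (r = 0.61, permutation p = 0.0342, adjusted p = 0.0856) and Fkbp5 (r = 0.58, permutation p = 0.0494, adjusted p = 0.0989) nearest to the threshold. What part the slope has in the treatment differences was not tested beyond the models that hold it.

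Of the genes that the receptors induce, Fkbp5 (ENSMUSG00000024222, GRCm38 chr17:28399094-28517527, minus strand), a co-chaperone that lowers the receptor's affinity for its hormone and is widely used as a readout of receptor activity, did not pass. Its lowest, median and highest levels were 17.3, 24.4 and 32.5 CPM in PBS mice and 19.3, 27.4 and 31.2 CPM in HsTX1[R14A] mice. All 9 treated mice lay inside the PBS range and 8 of 9 above the PBS median, and the log2 fold change was 0.18 with a 95% interval from -0.033 to 0.40 (edgeR, adjusted p = 0.168). The 3 treated females, with 29.5, 30.97 and 31.2 CPM, lay above the 6 PBS females, which reached 28.6 CPM. Without PBS mouse 102, which had the highest level of all, Fkbp5 passed with 0.25 (edgeR, adjusted p = 0.0457), and over the 35 alternatives the adjusted p ran from 0.0457 to 0.875. The value turned to -0.20 within the 6 mice of the less common name form (edgeR, adjusted p = 0.855), against 0.30 within the other 15 (edgeR, adjusted p = 0.0850).

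Sgk1 (ENSMUSG00000019970, GRCm38 chr10:21882184-21999903, plus strand), a kinase that glucocorticoids and mineralocorticoids induce within minutes to hours and that acts on ion channels and on myelin-forming cells, had almost equal levels. The lowest, the median and the highest level were 35.1, 43.4 and 52.6 CPM in PBS mice and 36.1, 43.3 and 47.2 CPM in HsTX1[R14A] mice. All 9 treated mice lay inside the PBS range. The log2 fold change was -0.065 with a 95% interval from -0.22 to 0.085 (edgeR, adjusted p = 0.491), which leaves room for a fold between 0.861 and 1.06.

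The reference promoters of these genes were searched for the receptor's binding letters. RefSeq windows of GRCm38.p6, from 250 bases before to 50 after a transcription start, were at hand for 7 of the 10 genes (15 windows). The full palindrome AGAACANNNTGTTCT, which reads the same on both strands, was found in 1 of these windows, at Sgk1, and in 0.00913% of all 32851 windows (3 windows). A pair of upstream stretches of Sgk1 is shown because this gene alone of the 10 had the full element in a window. The first, chr10:21993640-21993889 on the plus strand, holds the element in capitals, 189 to 175 bases before the start, and 1 more copy of its shorter motif in lower case. The other, chr10:21991973-21992222 on the plus strand, upstream of another start of Sgk1, holds only the single-side motif AGAACA in capitals, 13 to 8 bases before the start.
Sgk1 window with the full element: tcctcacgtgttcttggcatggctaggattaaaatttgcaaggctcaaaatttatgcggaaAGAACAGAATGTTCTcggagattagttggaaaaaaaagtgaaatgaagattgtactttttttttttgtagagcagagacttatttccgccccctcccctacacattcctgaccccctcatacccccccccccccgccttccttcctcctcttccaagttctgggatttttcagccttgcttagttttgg
Sgk1 window with the single-side motif: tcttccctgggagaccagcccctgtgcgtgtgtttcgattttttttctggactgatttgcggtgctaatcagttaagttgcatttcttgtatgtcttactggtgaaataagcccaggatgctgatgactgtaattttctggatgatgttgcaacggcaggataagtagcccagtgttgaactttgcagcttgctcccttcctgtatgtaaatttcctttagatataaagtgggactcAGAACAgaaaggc
The looser form GNACANNNTGTNC, which overlaps the full element, was in 0.475% of all windows and, among the 10 genes, in the same Sgk1 window only. The single-side motif AGAACA, searched on both strands and contained in the full element, was in 19% of all windows, in 3 of the 6 of Sgk1 and in 1 of the 3 of Tsc22d3. The cAMP response element TGACGTCA, a palindrome known from the promoter of Crh, was in 1.79% of all windows and in 0 of the 15 windows of these genes, where Crh itself had none to search. A match of letters is a description of the window and not a measured binding site.

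Tsc22d3 (ENSMUSG00000031431, GRCm38 chrX:140539528-140600659, minus strand), which encodes the anti-inflammatory protein GILZ, had lower values after HsTX1[R14A] that did not pass. Across mice, its lowest, median and highest levels were 37.98, 46.9 and 68.6 CPM in PBS mice and 34.6, 42.6 and 51.3 CPM in HsTX1[R14A] mice. The ranges overlapped, with 8 of 9 treated mice below the PBS median, and the log2 fold change was -0.16 with a 95% interval from -0.35 to 0.021 (edgeR, adjusted p = 0.150). The highest of all 21 values was that of PBS mouse 103. Without PBS mice 103 and 90 the log2 fold change was -0.072 (edgeR, adjusted p = 0.467). With the length slope in the model it was 0.065, of the opposite sign (edgeR, adjusted p = 0.742).

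Zbtb16 (ENSMUSG00000066687, GRCm38 chr9:48654297-48836222, minus strand), a zinc finger transcription factor also called PLZF that is among the most strongly glucocorticoid-induced genes in several cell types, had a coefficient of variation of 33.6% in PBS mice, the highest of the 10 genes. Without PBS mouse 103 it was 25.6%, below that of Cdkn1a (28.02%), and without mice 103 and 90 it was 18.9%. Its lowest, median and highest levels were 6.88, 22.8 and 30.6 CPM in PBS mice and 15.1, 27.99 and 41.6 CPM in HsTX1[R14A] mice. The lowest values were those of PBS mice 103 and 90, with 6.88 and 10.9 CPM, and 3 of 9 treated mice lay above the highest PBS mouse. The log2 fold change was 0.43 with a 95% interval from -0.016 to 0.87 (edgeR, adjusted p = 0.119). Without those 2 PBS mice it was 0.28 (edgeR, adjusted p = 0.175), and with the length slope in the model it was -0.20 (edgeR, adjusted p = 0.605).

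Pdk4 (ENSMUSG00000019577, GRCm38 chr6:5483351-5496309, minus strand), a kinase that shuts the pyruvate dehydrogenase complex and so spares glucose, had a coefficient of variation of 11.2% in PBS mice, near that of Nr3c1 (10.8%) and of Sgk1 (11.2%). From lowest over median to highest, its levels were 8.80, 10.3 and 12.6 CPM in PBS mice and 8.09, 10.7 and 12.1 CPM in HsTX1[R14A] mice. The ranges were nearly the same, and the log2 fold change was -0.041 with a 95% interval from -0.21 to 0.13 (edgeR, adjusted p = 0.714).

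Cdkn1a (ENSMUSG00000023067, GRCm38 chr17:29090976-29100727, plus strand) encodes p21, an inhibitor of cell-cycle kinases that both p53 and glucocorticoids induce and that is used as a marker of cell senescence. The lowest, the median and the highest value were 11.8, 17.5 and 29.7 CPM in PBS mice and 11.9, 19.1 and 29.8 CPM in HsTX1[R14A] mice. The 3 treated females held both ends of their group, with 11.9, 13.3 and 29.8 CPM, and 11 of 12 PBS mice lay inside the range of the treated mice. The log2 fold change was 0.11 with a 95% interval from -0.25 to 0.46 (edgeR, adjusted p = 0.639). It turned to -0.051 without HsTX1[R14A] mouse 98, the female with 29.8 CPM (edgeR, adjusted p = 0.833), and to -0.11 within the 15 mice of the common name form.

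In the stress hormone system, Crh (ENSMUSG00000049796, GRCm38 chr3:19693401-19695396, minus strand), the ligand, was measured at 83 counts or more in each mouse. Its lowest, median and highest levels were 3.97, 5.87 and 8.07 CPM in PBS mice and 3.48, 6.35 and 8.13 CPM in HsTX1[R14A] mice, so that the treated range enclosed all 12 PBS values. The log2 fold change was 0.15 with a 95% interval from -0.16 to 0.46 (edgeR, adjusted p = 0.439). The 6 treated males, from 6.10 to 7.98 CPM, lay higher than most of the 6 PBS males, which ran from 3.97 to 6.63 CPM. Of the 3 treated females, 2 had the lowest values of their group, 3.48 and 4.45 CPM, and the third had the highest, 8.13 CPM.

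Crhr1 (ENSMUSG00000018634, GRCm38 chr11:104132855-104175523, plus strand), the main Crh receptor of the forebrain and of the pituitary, was higher after HsTX1[R14A]. Across mice, the lowest, median and highest levels were 4.68, 8.76 and 12.02 CPM in PBS mice and 8.35, 11.7 and 17.7 CPM in HsTX1[R14A] mice. The groups overlapped, with 8 of 9 treated mice above the PBS median, 4 above the highest PBS mouse and 6 of 12 PBS mice below the lowest treated mouse. The mean was 8.47 ± 2.49 CPM (SD, n = 12) against 12.2 ± 3.26 CPM (SD, n = 9), a 1.45-fold difference with a log2 fold change of 0.53, a standard error of 0.178 and a 95% interval from 0.16 to 0.90 (edgeR, adjusted p = 0.0310). Both name forms gave a higher mean, with 0.44 in the 15 mice of the common form (edgeR, adjusted p = 0.180) and 0.49 in the 6 of the other (edgeR, adjusted p = 0.855), and 0.45 with the form as a covariate (edgeR, adjusted p = 0.0765). The value was 0.45 without PBS mice 103 and 90 (edgeR, adjusted p = 0.0651) and 0.22 with the length slope in the model (edgeR, adjusted p = 0.674), and it kept its sign in all 35 alternatives, whose adjusted p ran from 0.0139 to 0.855. With 1 mouse left out, Crhr1 failed the threshold without PBS mouse 90 or 91 and without HsTX1[R14A] mouse 98, 74 or 81, with log2 fold changes from 0.41 to 0.62 over the 21 omissions and an adjusted p (edgeR) of at most 0.0936.

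**Figure D3:**
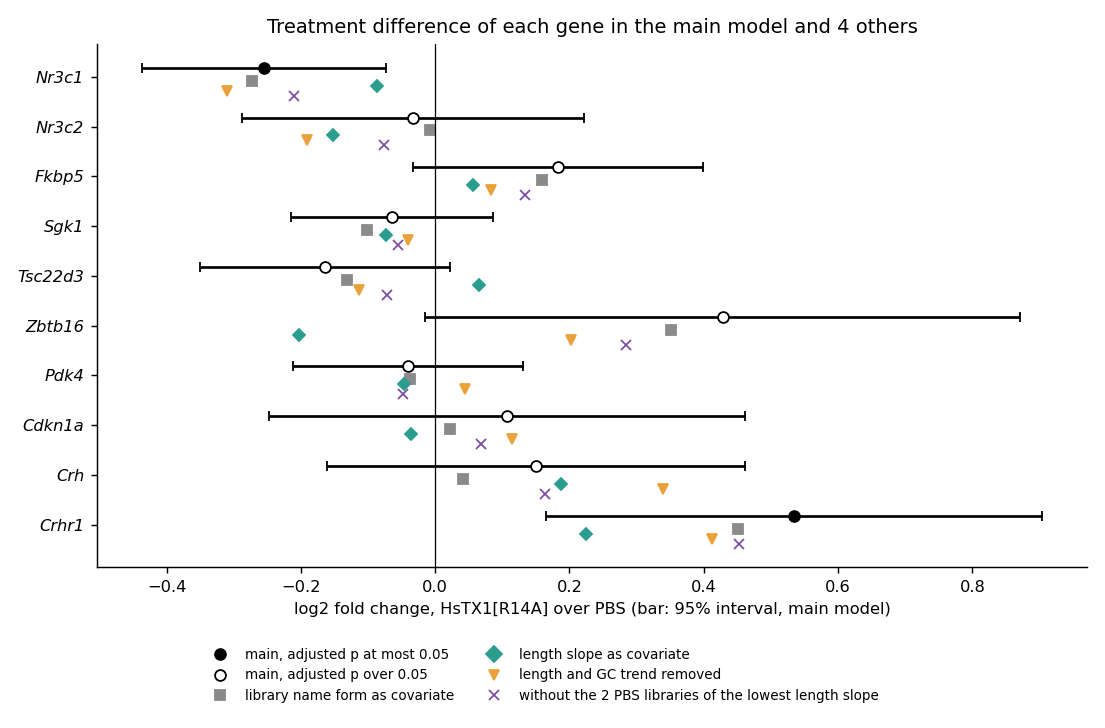
Treatment effect, as log2 of HsTX1[R14A] to PBS, for each of the 10 genes, with circles and 95% intervals from edgeR with sex in the model (filled where the adjusted p was at most 0.05), and other symbols for 4 alternative models. Only Nr3c1 (-0.25) and Crhr1 (0.53) have filled circles, and with the length slope in the model (diamonds) Tsc22d3, Zbtb16 and Cdkn1a change sign.

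In whole-brain RNA, fewer cells of a type and less RNA per cell cannot be told apart, and markers of some cell types moved with the treatment. These counts are read against the 31.6% of all genes that passed (5144 of 16303). That total changed with the mice kept. Without PBS mice 103 and 90 it was 2887 of 16302. Over single omissions it ran from 2289 (without PBS mouse 90) to 6614 (without HsTX1[R14A] mouse 93). Of 7 oligodendrocyte markers 4 fell (57.1%), with a median summed level of 5063 CPM (4295 to 6631) in PBS mice and of 4318 CPM (3255 to 4798) in HsTX1[R14A] mice. Of 7 astrocyte markers 4 fell (57.1%), while their summed level had a median of 4434 CPM (3302 to 4931) in PBS and of 4467 CPM (3311 to 4985) in HsTX1[R14A] mice. With 1 mouse left out the oligodendrocyte count stayed at 4 of 7 and the astrocyte count ran from 1 to 4, and without PBS mice 103 and 90 they were 4 and 1. Smaller shares than that of all genes passed in the next 3 lists. Of 8 neuron markers 1 rose (5666 CPM, 4420 to 7018, against 6179 CPM, 5114 to 8028), of 8 endothelial markers 2 rose (101 CPM, 73.2 to 138, against 124 CPM, 88.5 to 155) and of 6 microglia markers 1 fell (410 CPM, 358 to 523, against 341 CPM, 305 to 457). Without PBS mice 103 and 90 the neuron count was 0 and the others were the same, and over the 21 omissions of 1 mouse they ran from 0 to 3 (neuron), 1 to 4 (endothelial) and 1 to 3 (microglia). None of the 6 choroid plexus, 6 hypothalamus, 5 red blood cell or 2 pituitary markers passed (edgeR). Omitting single mice changed this only for the 2 pituitary markers, which both passed as lower without HsTX1[R14A] mouse 71. These markers, Gh and Prl, were at 0 in some mice of both groups and reached summed levels of 19.97 CPM in PBS and 24.1 CPM in HsTX1[R14A] mice. The part of these cell types in the differences of Nr3c1 and Crhr1 was not tested.

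Between the sexes, none of the 10 genes passed the test. In this comparison 0.0552% of the genes tested passed (9 of 16303), and among the 10 genes 0 had an unadjusted p under 0.05 by edgeR, limma/voom or DESeq2. The widest differences were in Zbtb16, lower in males by a log2 difference of -0.24 with a 95% interval from -0.69 to 0.20, in Nr3c1 (0.15, from -0.028 to 0.33) and in Tsc22d3 (-0.15, from -0.34 to 0.033). The treatment by sex interaction was passed by 0% of all genes (edgeR, with 270 of 16303 genes at an unadjusted p under 0.05, and 0 also by limma/voom, with 250, and by DESeq2, with 302), and by none of the 10. Among these, 0 had an unadjusted p under 0.05 by edgeR or DESeq2 and 1 by limma/voom. The largest interaction was in Crh, 0.53 with a 95% interval from -0.065 to 1.14 (edgeR, adjusted p = 1.00). In separate fits the Crh log2 fold change was -0.18 in females (edgeR, adjusted p = 0.682) and 0.36 in males (edgeR, adjusted p = 0.145). For Fkbp5 it was 0.36 in females (edgeR, adjusted p = 0.244) and 0.063 in males (edgeR, adjusted p = 0.772). For Nr3c1 it was -0.40 in females (edgeR, adjusted p = 0.244) and -0.15 in males (edgeR, adjusted p = 0.408), and for Crhr1 0.37 in females (edgeR, adjusted p = 0.431) and 0.64 in males (edgeR, adjusted p = 0.138). With 3 treated females the intervals are wide, and values that differ by sex here are not shown to differ.

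Whether the genes varied together from mouse to mouse was asked in the 12 PBS mice, over all 45 pairs of log2 CPM. One pair passed, Fkbp5 with Nr3c1, with Pearson's r of -0.84 (permutation, 100000 resamples, two-sided, p = 0.00083, adjusted p = 0.0373) and Spearman's rho of -0.81 (permutation p = 0.00209, adjusted p = 0.0940). PBS mice with a high level of the receptor had a low level of its co-chaperone, from mouse 90 with 199 CPM of Nr3c1 and 17.3 CPM of Fkbp5 to mouse 83 with 143 CPM and 26.1 CPM. Without the 2 mice farthest from the median of Fkbp5 r was -0.81, and in the 10 mice of the common name form it was -0.88 (permutation, unadjusted p = 0.00078). The relation was weaker after the length and GC trend of each library had been removed (r = -0.33, permutation, unadjusted p = 0.291). Without PBS mice 103 and 90, r was -0.75 in 10 mice (permutation p = 0.0126, adjusted p = 0.284). In the 9 HsTX1[R14A] mice r was -0.26 (exact permutation test, p = 0.527, adjusted p = 0.790), and whether it differs from the value in PBS mice was not tested.

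Among the 6 genes known to be induced by the receptors, 0 of 15 pairs passed in the PBS mice, the median r was -0.078, and 6 pairs were positive. Over all 45 pairs the median r was -0.048, with 19 positive, and 6 pairs had an unadjusted permutation p of at most 0.05. The most positive pair of induced genes was Sgk1 with Cdkn1a, with an r of 0.63 (permutation p = 0.0279, adjusted p = 0.251) and of 0.82 without the 2 mice farthest from the median of Sgk1. Fkbp5 had an r of 0.43 with Sgk1 (permutation p = 0.166, adjusted p = 0.497), of 0.33 with Zbtb16 and of -0.44 with Tsc22d3 (permutation p = 0.149, adjusted p = 0.497). Tsc22d3 and Zbtb16 had an r of -0.71 (permutation p = 0.0109, adjusted p = 0.176), which became 0.064 without the 2 mice farthest from the median of Tsc22d3, so it rests on those mice. Cdkn1a and Crhr1 had an r of 0.64 in PBS mice (permutation p = 0.0239, adjusted p = 0.251) and of 0.76 in HsTX1[R14A] mice (exact permutation test, p = 0.0168, adjusted p = 0.378). In the 9 HsTX1[R14A] mice 0 of 45 pairs passed, 5 had an unadjusted exact permutation p of at most 0.05, and the most negative r was that of Nr3c2 with Crh (-0.83, exact permutation test, p = 0.00837, adjusted p = 0.377).

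**Figure D4:**
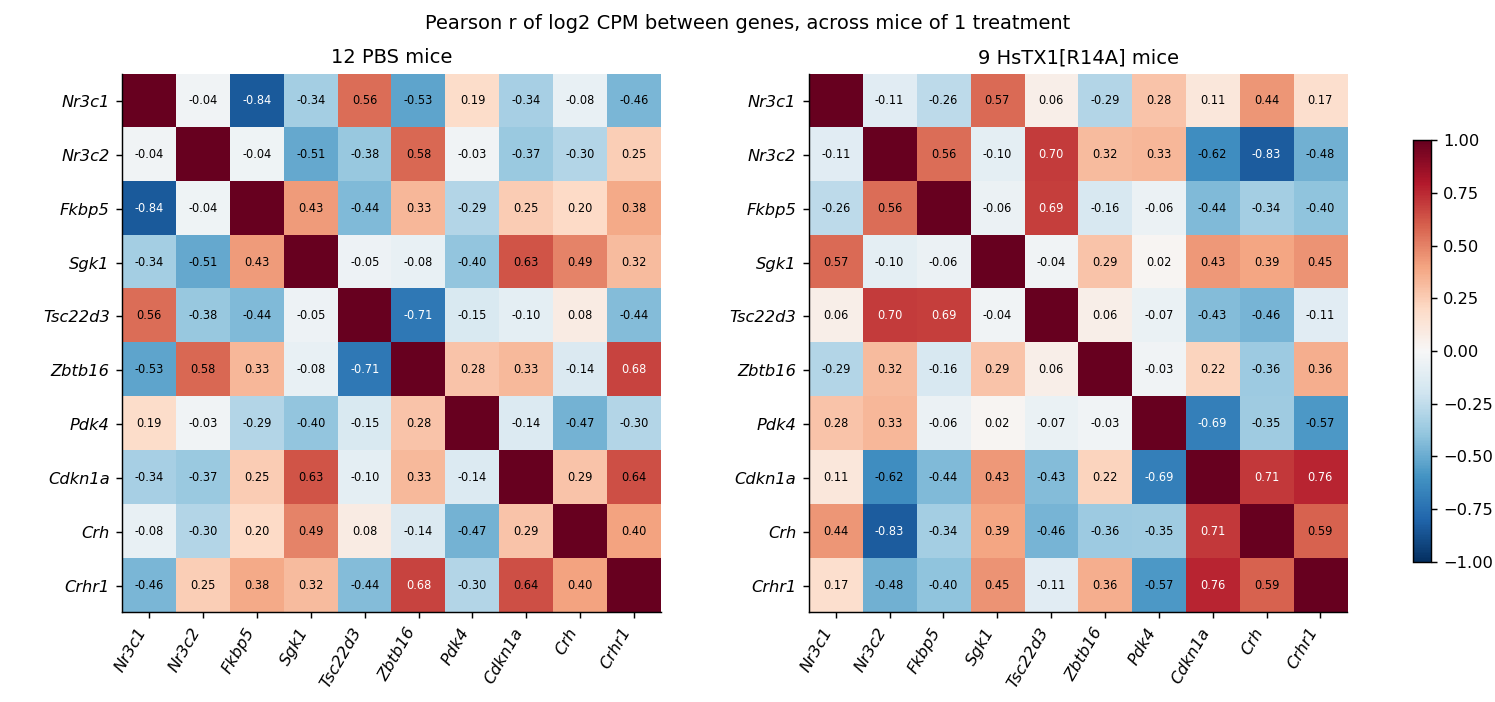
Pearson's r of log2 CPM between each pair of the 10 genes, printed in each cell and colored from blue (-1) to red (1), across 12 PBS mice (left) and 9 HsTX1[R14A] mice (right). The darkest blue cell on the left is Fkbp5 with Nr3c1 (-0.84), the only pair that passed, and that on the right is Nr3c2 with Crh (-0.83).

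The genes most like Fkbp5 over the 21 mice, by Pearson's r of log2 CPM after sex and treatment had been removed, were Matn2 (0.86), Nup107 (0.82), Ip6k1 (0.80), BC017643 (0.79), Tmem179 (0.78), Flcn (0.78), Zfp12 (0.78) and Tbl3 (0.78), out of 13301 genes whose log2 CPM averaged at least 1. These points share their libraries, and the order is a description. Of the other 9 genes Sgk1 ranked highest, with an r of 0.30 that 29.1% of those genes reached or passed, and Nr3c1 lowest with -0.49, which 92.1% reached or passed.

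Other genes of the pathway, from lists by role, were read against the 31.6% of all genes that passed (5144 of 16303). In other fits the total differed, and counts from them are read against their own total. This was 2887 of 16302 without PBS mice 103 and 90 and 1999 of 16303 with the name form as a covariate. Over single omissions it ran from 2289 to 6614. Of 23 further genes that glucocorticoids are known to induce, 2 rose and 5 fell (30.4%, median log2 fold change -0.13). Among those that fell was Mt2, a metal-binding metallothionein, from 124 ± 22.3 CPM (SD, n = 12) to 88.3 ± 11.9 CPM (SD, n = 9), with a log2 fold change of -0.51 (edgeR, adjusted p = 0.0151). Bcl6, a transcriptional repressor, rose from 21.6 ± 4.97 CPM (SD, n = 12) to 29.4 ± 5.22 CPM (SD, n = 9), with 0.49 (edgeR, adjusted p = 0.0170). Of 14 chaperones of the receptor 5 rose and 1 fell (42.9%), with the smallest p for Hspa1b (1.00) and Hspa1a (0.88, log2 fold changes). These are inducible heat shock genes whose near-identical sequences make the split of reads between them uncertain. Of 12 coregulators 9 rose and 1 fell (83.3%, median 0.45), among them the acetyltransferase Ep300 (0.65) and, as the one that fell, the deacetylase Hdac3 (-0.17). Without PBS mice 103 and 90 the counts were 2 and 3 of 23 (higher and lower), 5 and 0 of 14, and 9 and 1 of 12. With 1 mouse left out, 2 to 3 of the further induced genes rose and 3 to 6 fell, and 3 to 6 chaperones rose, with 3 without PBS mouse 90 or HsTX1[R14A] mouse 71. The coregulators that rose fell in number to 5 without HsTX1[R14A] mouse 81 and to 6 without mouse 98 or PBS mouse 90. Of all genes, 3263 passed without mouse 81, 3005 without mouse 98 and 2289 without PBS mouse 90. With the name form as a covariate 3 coregulators rose and 1 fell.

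Around the single target genes, 0 or a few members passed in each direction, read against the 31.6% of all genes. The shares were 20% of the stress peptide list and 25% each of the steroid and SGK lists. They were 30.8% each of the pyruvate dehydrogenase and p53 lists and 40% of the other kinase inhibitors. Of 10 stress peptide genes 2 rose, the oxytocin receptor Oxtr (0.66, edgeR, adjusted p = 0.0151) and Adcyap1r1, the receptor of the peptide PACAP (0.55, edgeR, adjusted p = 0.0403), while Crhbp, Crhr2, Avp and Pomc did not pass. Of 8 genes of steroid metabolism and transport 2 fell, the drug exporter Abcb1b (-0.84) and Tspo (-0.42), a mitochondrial protein used as a glial marker. Of 8 SGK kinases and substrates 1 rose, Nedd4l (0.43), a ubiquitin ligase that Sgk1 restrains, and 1 fell, Ndrg2 (-0.31). Of 13 pyruvate dehydrogenase genes 3 rose, with the phosphatase Pdp2 at 0.39, and 1 fell, the pyruvate carrier Mpc1 (-0.60). Of 13 p53 target genes 3 rose, with Zmat3 at 0.59, and 1 fell, Ccng1 (-0.45), and of 5 other inhibitors of cell-cycle kinases 2 fell, Cdkn1c (-0.42) and Cdkn2c (-0.46), all as log2 fold changes. Without PBS mice 103 and 90, 1 of the 10 stress peptide genes rose, 1 of 8 steroid genes fell, 1 pyruvate dehydrogenase gene rose and 1 fell, 2 of 13 p53 targets rose and 0 fell, and 0 of 5 inhibitors of cell-cycle kinases passed (edgeR, chosen after the values had been seen). In that fit 2887 of all 16302 genes passed. With 1 mouse left out, the genes that rose or fell numbered 1 to 3 and 0 to 1 of the stress peptide list, 0 to 1 and 1 to 2 of the steroid list, 0 to 4 and 1 to 3 of the SGK list, 1 to 3 and 1 to 3 of the pyruvate dehydrogenase list, 1 to 3 and 0 to 2 of the p53 list, and 0 and 0 to 2 of the kinase inhibitors.

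Clock genes and immediate early genes, some of which glucocorticoids also regulate, held more that passed. Of 13 clock genes 6 rose and 0 fell (46.2%, median 0.28), with the smallest p for Per2 (0.98, edgeR, adjusted p = 0.0151) and Tef (0.28, edgeR, adjusted p = 0.0180). Of 8 immediate early genes, which neuronal activity induces, 5 rose and 0 fell (62.5%, median 0.78), among them Fos (0.88, edgeR, adjusted p = 0.0170) and Egr2 (0.98, edgeR, adjusted p = 0.0204). Without PBS mice 103 and 90, 5 of 13 clock genes and 5 of 8 immediate early genes rose. Over the 21 omissions of 1 mouse 4 to 7 clock genes rose, with 4 without PBS mouse 90 or HsTX1[R14A] mouse 98. The immediate early genes that rose were 2 without HsTX1[R14A] mouse 98 and 3 without mouse 81 or PBS mouse 90, over a range of 2 to 7. With the name form as a covariate 4 clock genes and 1 immediate early gene rose. Of all genes, 1999 passed in that fit, 3005 without mouse 98, 3263 without mouse 81 and 2289 without PBS mouse 90. With the length slope in the model 0 of all 16303 genes passed, and so 0 genes of any of these lists. The medians were then 0.086 for the clock genes, 0.20 for the immediate early genes, 0.011 for the coregulators and -0.040 for the further glucocorticoid-induced genes.

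**Figure D5:**
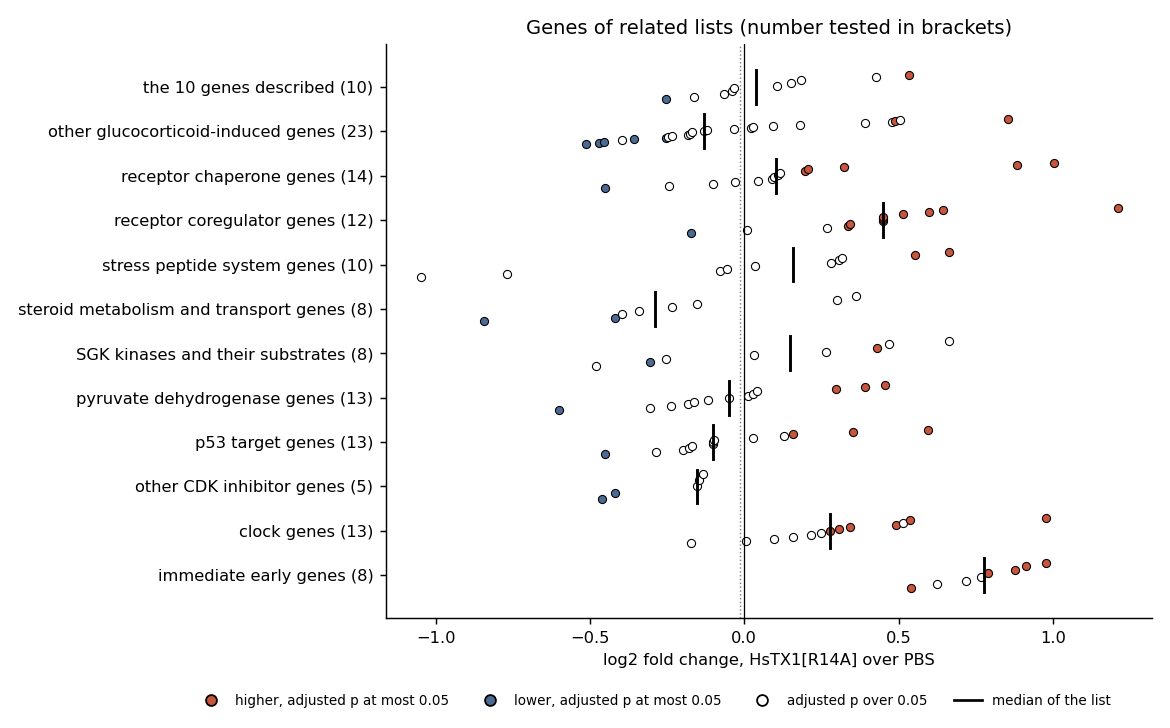
Treatment effect, as log2 of HsTX1[R14A] to PBS, for each gene (points) of the 10 genes described and of 11 related lists, with the number tested in brackets, red or blue fill where the adjusted p was at most 0.05 (edgeR), a black bar for the median of each list and a dotted line for the median of all genes tested (-0.013). The coregulators and immediate early genes lie mostly to the right of 0, with medians of 0.45 and 0.78, and the 10 genes described spread to both sides.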

How the data were processed

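Brain RNA of 21 mice was examined. The authors aligned reads to GRCm38 with STAR, used Salmon to quantify transcripts, and the deposited table gives raw estimated counts of 16318 genes. Another library kit is named in the labels than in the methods, and the labels spell the peptide HxTX1. The deposited table also holds the authors' fold changes and p-values, which were not used, and 53 further per-sample columns (37 of CPM and 16 of counts), also not used. Estimated counts were rounded (90.5% lay within 0.01 of a whole number).

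The 16303 genes that filterByExpr kept entered edgeR 4.0.16 (R 4.3.3), with TMM scaling and its quasi-likelihood functions glmQLFit and glmQLFTest, with sex and treatment as terms, Benjamini-Hochberg adjustment over all genes and a threshold of 0.05. The standard error is the log2 fold change over the square root of F. An interaction model and a model for each sex were fitted alike. CPM are TMM-scaled, and log2 CPM carry a prior count of 2. Transcript lengths are those of the longest GENCODE M21 transcript. Correlations used permutation tests of 100000 resamples in 12 mice and all 362880 pairings in 9. Sequences come from RefSeq (GRCm38.p6). At 14917174 to 47613792 counts per library the spread between mice, more than counting error, sets the precision. The 48 pairs of mice within groups differed by more than sampling noise (mean chi-square per gene 7.58 or more, over genes with at least 20 counts).

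The 10 genes, the lists and the alternatives were chosen with earlier results of these data known. Named are the 10 genes, for each related list the 2 genes with the smallest p, the 8 genes most like Fkbp5, and genes used as checks. The cell type lists are given by counts and summed levels, with Snap25 named after their values had been seen, as were Crhbp, Crhr2, Avp and Pomc among the stress peptide genes. Of the checks, Yam1 ran from 201 to 11840 CPM in PBS mice, and Ddx3y, Uty, Kdm5d and Eif2s3y were at most 0.504 CPM in females. On data simulated from these 21 libraries, edgeR recovered 60% of 200 genes changed 1.5-fold and 89% of 200 changed 2-fold among 16299 genes. It also called 9 and 13 unchanged genes. Each gene was drawn independently, without a length slope or name form, so the recovery in the measured libraries may differ. Alternatives were limma/voom (limma 3.58.1), DESeq2 1.42.0, RLE scaling, other filters, no sex term, the library name form or the length slope as covariate, 1 surrogate variable (sva 3.50.0), quality weights, subtraction of a loess trend (span 0.5) with length and GC from every library, fits within 1 name form, and omission of single mice. Leaving out PBS mice 103 and 90 was decided after seeing the data. Treatment was randomized within cages, but the labels used here give no cage and share no replicate number between groups, so no block could be fitted.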

Additional observations from a re-analysis of the deposited data

Results flagged for a closer look

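Of 30 groups of 6 mice (10 genes in the PBS females, PBS males and HsTX1[R14A] males), 1 held a mouse far from the others, where chance flags about 1 in 20 groups, or 1.5 of these 30. Among the HsTX1[R14A] males, mouse 81 had 19.3 CPM of Fkbp5, the lowest of 6, with the next mouse at 24.7 CPM, so that this gap was 0.644 of the range of the group. Without mouse 81 the log2 fold change of Fkbp5 was 0.23 (edgeR, adjusted p = 0.0920) in place of 0.18. The library of mouse 81 had 17552413 counts, the fewest of the treated mice, and a length slope of 0.20. The part of depth and slope in this value was not tested.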

How the results depend on the processing

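Of the 10 genes, 2 passed the treatment test, and with 1 mouse left out between 0 and 3 passed (0 without PBS mouse 90, HsTX1[R14A] mouse 98 or 81, and 3, with Fkbp5, without PBS mouse 102). The count stayed at 2 with limma/voom, DESeq2, RLE scaling and both filters. It was 1 (Crhr1) without a sex term, where 2984 of all 16303 genes tested passed. The count was also 1 (Nr3c1) with the length and GC trend removed, where 2611 of 16303 passed. In the main test 5144 of 16303 did, so the total over all genes was smaller in both fits. It was 0 with the name form as covariate, 0 with the length slope as covariate, 0 with 1 surrogate variable, 0 with sample quality weights, 0 in the 15 mice of the common name form, 0 in the 6 mice of the other form and 0 without the 2 PBS libraries of the lowest length slope. Within the 15 mice 0 of all 16305 genes tested passed, and within the 6 mice 0 of 16170. The 0 of the 10 genes is therefore not particular to them in these 2 fits. Leaving out the 2 PBS libraries and fitting each name form alone also leave fewer mice. The cause was not tested for any of these counts. The counts for sex and for the interaction were 0 in all 29 alternatives each.

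Of the 45 pairs, 1 passed in PBS mice, and 0 to 2 with 1 mouse left out. The count was 0 with RLE scaling, 0 with the length and GC trend removed, 0 by Spearman's rho and 0 without the 2 PBS libraries of the lowest length slope. It was 1 with a prior count of 0.5 and 1 in the 10 mice of the common name form. Nr3c1 and Crhr1 kept their direction in all 35 alternatives. With RLE scaling the mean CPM of each gene in each group moved by less than 1 SD. Leaving out 1 mouse cannot move the mean of groups of this size by 1 SD, so those omissions do not test the levels. Within sexes and name forms the groups are small (3 treated females, 2 PBS mice of the less common form). No paired analysis was possible because the labels used here do not give the cages within which treatment was randomized, and no replicate number is shared between groups.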
